A study of Mus musculus with 12 samples.

Results

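The response of STAT6-deficient B cells to IL-4 was taken from 6 of the 12 arrays of the series. The 3 arrays of knockout cells cultured with IL-4 (25 ng/ml) were set against the 3 arrays of knockout cells cultured without it, and every gene measured was included. The title of the series asks which genes STAT6 regulates in B cells, and the other 6 arrays hold wild-type cells treated in the same ways. B cells had been purified by negative selection from spleens of female BALB/c mice aged 9 weeks. In all 4 groups, controls included, activation lasted 4 days, with anti-CD40 at 10 µg/ml and the bacterial ligand lipopolysaccharide (LPS) at 2 µg/ml, and fresh medium was added on day 3. The control is therefore an activated B cell without IL-4, not a resting one. RNA integrity lay between 9.6 and 9.9 according to the labels, and each labelling took 100 ng. The labels speak of triplicates and name no separate animals, so the spread behind each p-value is that between these samples and may be technical. They also do not describe how Stat6 was disrupted.

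IL-4 binds a receptor built from the IL-4 receptor alpha chain and the common gamma chain, which carry the kinases JAK1 and JAK3. STAT6 docks on the phosphorylated alpha chain, moves to the nucleus and switches on genes such as Fcer2a, which encodes the low-affinity IgE receptor CD23, and the germline transcripts that come before switching to IgG1 and IgE. A separate stretch of the alpha chain recruits the adaptor IRS2, which feeds PI3-kinase, AKT and mTOR and does not need STAT6.

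Each array gave 59305 non-control spots. Between 40.7% and 44.0% of them were well above background on the 6 knockout arrays, and none was saturated. Levels are written as the log2 signal minus the 75th percentile of the array, so that a difference of 1 is a 2-fold difference. Changes are IL-4 minus control with the standard error (SE) of limma, an adjusted p by Benjamini-Hochberg over the 16496 genes tested, and 3 arrays per group, whose number limits the precision of every value. Per the file headers, the arrays came from 2 slides. Knockout controls 1 and 2 lay on slide 1, and control 3 lay on slide 2 with all IL-4 arrays, so a value within slide 2 sets the 3 IL-4 arrays against control 3 alone. Across genes, r was 0.994 to 0.998 between knockout arrays of the same group and 0.986 to 0.990 between groups, and genes are not independent replicates. The first principal component of the 6 arrays (61.8% of the variance) placed the controls at -24.1, -29.1 and -30.4 and the IL-4 arrays at 33.6, 29.6 and 20.3. The groups did not overlap on it. The second (18.9%) ran through both groups, with controls at 21.7, 1.16 and -16.2 and IL-4 arrays at 10.9, 6.20 and -23.8, so control 1 and IL-4 array 3 lay at its ends.

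The targeted gene was checked first. The brightest Stat6 probe (mm9 chr10:127097689-127097748) read 1.13, 1.29 and 1.30 in knockout controls and 1.30, 1.38 and 1.59 in knockout cells with IL-4, against 3.11 to 3.42 on the wild-type arrays. Stat6 signal was thus lower on every knockout array than on any wild-type array, as it was for the other 2 probes kept, and its change with IL-4 in the knockout did not pass (0.19 ± 0.08, adjusted p = 0.0895). Every Stat6 probe was still well above background on all knockout arrays. Between controls, the difference of knockout from wild type was -1.94 for the brightest probe and -2.28 and -0.88 for the others. Which part of the transcript each probe reads relative to the disrupted part was not analysed here, since no gene annotation of mm9 was used.

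Knockout cells still responded to IL-4. In these cells 581 genes, 3.52% of those tested, changed at least 2-fold with an adjusted p under 0.05. Of these 130 rose (0.788% of the genes tested) and 451 fell (2.73%). Without a fold minimum, 27.5% of genes rose and 14.7% fell, and the median change of all genes was 0.05. Counts of list members below that name no fold use the adjusted p alone, so these shares are their background. When each array was scaled by its median in place of its 75th percentile, the share of 2-fold genes that rose went from 22.4% to 42.9% and the median change of all genes from 0.05 to 0.20, so the balance between rises and falls depends on the scaling. With this median scaling 5913 of the 16496 genes rose and 1280 fell without a fold minimum. Under quantile normalisation 3604 rose and 2880 fell. Few changes were large: 11 genes rose and 50 fell at least 4-fold. In 534 of the 581 genes the control and IL-4 arrays did not overlap, against 46.5% of all genes tested. Within slide 2, 631 genes (3.83%) changed at least 2-fold and 407 of the 581 were among them with the same sign, 63 rises and 344 falls. All 581 kept their sign there. For the 534 without overlap that was fixed in advance, since control 3 and the IL-4 arrays enter both comparisons.

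**Figure D1:**
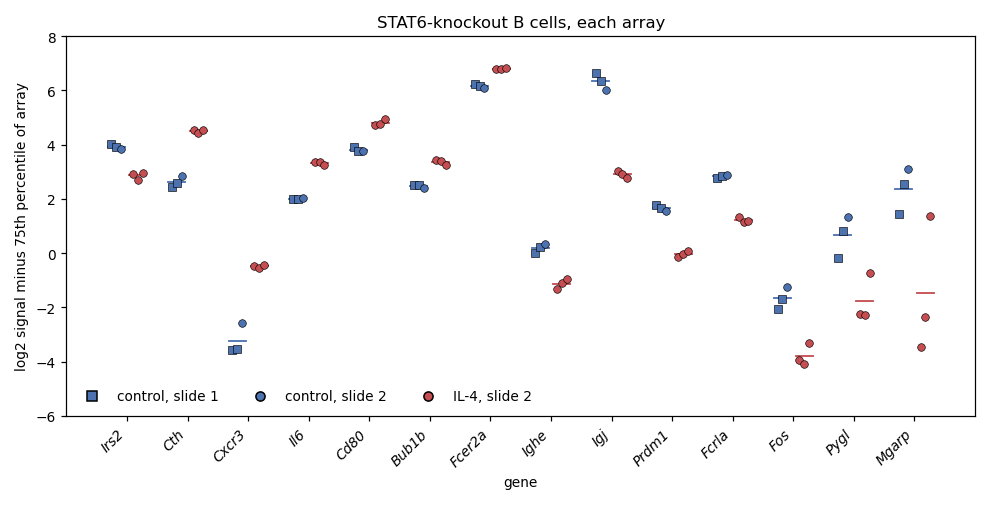
Levels of 14 genes in each knockout array, as log2 signal minus the 75th percentile of the array, with controls in blue, IL-4 arrays in red, squares for slide 1, circles for slide 2 and lines at group means. The IL-4 arrays lie close together for Irs2 (2.71 to 2.97) and are spread from -3.45 to 1.38 for Mgarp.

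The receptor and the arm of its signal that runs through IRS2 came next. Of 6 receptor chains and JAK kinases tested, 2 rose and 1 fell, with a median of 0.02 that becomes -0.07 under quantile normalisation and -0.01 without control 1. Il2rg, the common gamma chain, read 5.10, 5.13 and 5.12 in controls and 5.55, 5.50 and 5.52 with IL-4, a rise of 0.41 ± 0.04 (adjusted p = 6.13e-05) with no overlap of the arrays. Jak2 rose by 0.33. Jak3 fell by 0.30, a call that was lost without control 2, control 3, IL-4 array 1 or IL-4 array 2. Il4ra, the alpha chain and itself an IL-4 target in wild-type cells, read -2.39, -2.88 and -1.85 in controls and -2.62, -2.60 and -2.62 with IL-4. The IL-4 arrays lay inside the range of the controls, and the change of -0.24 ± 0.20 did not pass (adjusted p = 0.355), but within slide 2 it was -0.76 and passed (adjusted p = 0.00877). In wild-type cells Il4ra rose by 2.93, and the difference between the responses was -3.17 (adjusted p = 1.01e-05).

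Irs2, the adaptor that carries the STAT6-independent signal, was 2.09-fold lower with IL-4 (mm9 chr8:11004490-11004549). It read 4.04, 3.90 and 3.84 in controls and 2.92, 2.71 and 2.97 with IL-4, and the groups did not overlap (-1.06 ± 0.07, adjusted p = 5.04e-06, and -0.98 within slide 2). In wild-type cells it fell by 0.46 on the log2 scale, and the fall in the knockout was larger (difference -0.61, adjusted p = 0.00115, and -0.52 with slide as a block). Pik3cg, a catalytic subunit of PI3-kinase gamma, read -0.58, -0.56 and -0.61 in controls and -1.71, -1.73 and -2.19 with IL-4 and was 2.45-fold lower. Among the 29 genes of this arm tested, 11 rose and 3 fell, with a median of 0.11, beside 27.5% and 14.7% of all genes. The rises were small and lay among adaptors, phosphatases and regulatory subunits, with Dok1 at 0.58, Pik3r2 at 0.44 and Ptpn11, the phosphatase SHP2, at 0.37. The third gene that fell was Ptpn6, the phosphatase SHP1, by -0.13, which turns to 0.02 under median scaling and did not pass within slide 2 (adjusted p = 0.112).

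Feedback inhibitors and STAT factors rose in 12 of 19 cases and fell in 1 (median 0.35, and 0.26 within slide 2). Stat2 stood at -0.20, a call that was lost under median scaling, within slide 2 (adjusted p = 0.181) and without control 2 or IL-4 array 1. Socs5, a member of the SOCS family of feedback inhibitors, read -1.04, -0.86 and -0.56 in controls and 0.04, -0.20 and 0.24 with IL-4. It rose by 0.85 ± 0.12 (adjusted p = 0.000453), with no overlap, and its response was higher than in wild-type cells, where it moved by -0.07 (difference 0.91, adjusted p = 0.00217). Other members moved far less than in wild type. Cish rose by 0.64 (0.43 within slide 2, adjusted p = 0.125) against 6.99 in wild type, Socs1 by 0.56 against 2.09, and Stat5a by 0.48 (0.26 within slide 2, adjusted p = 0.173) against 2.18. The differences between the genotypes passed for all 3.

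Known IL-4 and STAT6 targets of B cells rose in 12 of 21 cases and fell in 7, with a median of 0.20 against 0.86 in wild type. Fcer2a, the CD23 gene, read 6.24, 6.17 and 6.10 in controls and 6.80, 6.78 and 6.82 with IL-4. Every IL-4 array was above every control, by 0.63 ± 0.05 (adjusted p = 9.19e-06, and 0.70 within slide 2). Bcl2l1, which encodes the survival factor BCL-XL, read 5.58, 5.54 and 5.74 in controls and 6.55, 6.45 and 6.65 with IL-4. Its rise of 0.93 ± 0.07 stood beside 0.86 in wild type, and the difference between them was 0.07 (adjusted p = 0.595). Nfil3, a bZIP transcription factor, rose by 0.73 against 3.60 in wild type.

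**Figure D2:**
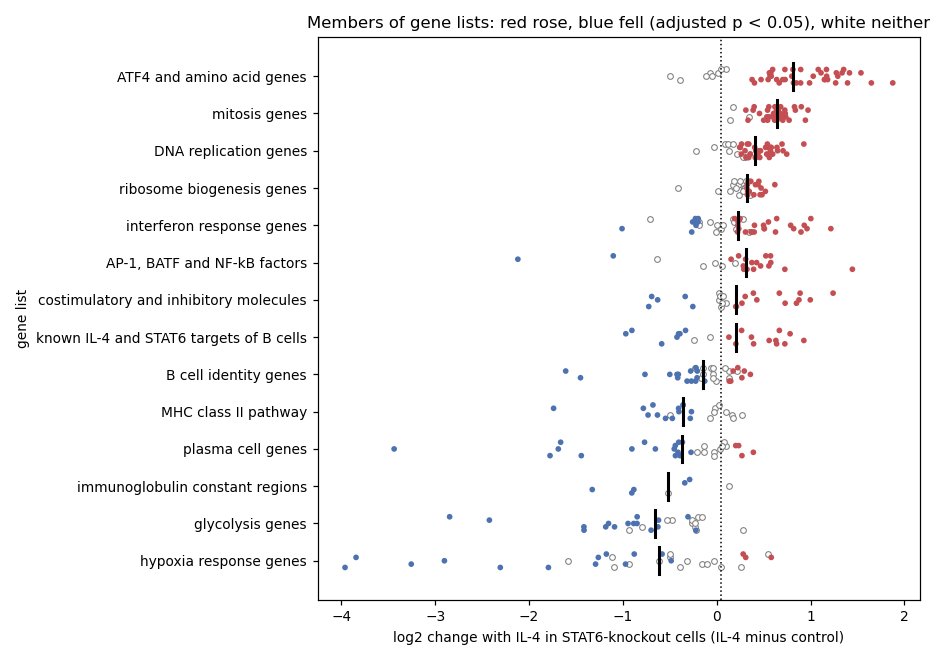
Log2 change with IL-4 in knockout cells of each tested member of 14 gene lists, red for members that rose and blue for members that fell with an adjusted p under 0.05, white for the rest, black bars at list medians and a dotted line at the median of all genes (0.05). ATF4 and amino acid genes lie highest (median 0.81) and glycolysis genes lowest (median -0.66), and the median of B cell identity genes turns from -0.14 to 0.01 when arrays are scaled by their medians.

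Genes for amino acid supply rose together and had the highest median of the lists examined. ATF4 is a transcription factor whose protein is made when amino acids run short or protein folding is disturbed, and its targets import amino acids, make serine, glycine, cysteine, proline and asparagine, and load transfer RNAs. Of 47 such genes tested, 39 rose and 0 fell, 18 of them at least 2-fold, with a median of 0.81 against 0.05 for all genes. Within slide 2, 38 rose and 1 fell (median 0.71). Cth, which makes cysteine from cystathionine (mm9 chr3:157560183-157560242), read 2.44, 2.60 and 2.84 in controls and 4.55, 4.43 and 4.52 with IL-4. The IL-4 arrays were close together and all far above the controls (3.67-fold, 1.88 ± 0.10, adjusted p = 1.40e-06, and 1.66 within slide 2). Nupr1, a small stress-induced chromatin protein, read 2.80, 2.96 and 3.31 in controls and 4.55, 4.55 and 4.90 with IL-4 (3.13-fold).

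Enzymes of the serine and folate routes rose with it. Mthfd2, of mitochondrial folate metabolism, read 2.25, 2.13 and 2.37 in controls and 3.61, 3.56 and 3.58 with IL-4 (2.52-fold). Psat1, of serine synthesis, went from 4.88, 4.85 and 4.93 to 6.04, 6.05 and 5.91 (2.16-fold). Aldh1l2 rose 2.83-fold and Shmt2 2.25-fold. In each of these the 2 groups did not overlap. Transporters rose as well: Slc7a3, which carries cationic amino acids, read 2.62, 2.63 and 2.90 in controls and 4.11, 4.19 and 4.03 with IL-4 (2.63-fold), the glycine transporter Slc6a9 rose 2.67-fold, and Slc7a5, the large neutral amino acid carrier, 2.22-fold. Gpt2, a mitochondrial alanine aminotransferase, rose 2.90-fold. The regulators themselves rose too, Atf4 1.51-fold, Cebpb 2.45-fold, Ddit3, which encodes CHOP, 2.27-fold and Trib3, an inhibitor of ATF4 activity, 2.42-fold.

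In wild-type cells 39 of the 47 rose and 2 fell, with a median of 0.94, where 26.4% of all genes rose and 30.8% fell. The response was higher in the knockout for 7 members and lower for 15, against 28.3% and 16.4% of all genes. For both directions together the share of all genes is 44.8%, so the list stands near the background in how many members differed. Of the genes named, Trib3 (difference -1.05, adjusted p = 0.00185), Cebpb (-0.95) and Ddit3 (-0.79) responded less in the knockout, while Psat1 responded more (0.48, adjusted p = 0.000401). For Cth the difference was -0.37 (adjusted p = 0.0636), and with slide as a block it was -0.58 and passed (adjusted p = 0.00966).

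Promoters of these genes were read from RefSeq (GRCm38.p6), as windows of 300 bases from 250 before to 50 after the start, to show where the ATF4 composite element lies. It was searched as TGATGNAA on both strands and found in 25.0% of the 48 windows of 41 list members (87.2% of the list), against 4.0% of all 32851 windows of the table. Genes tested here gave 2.3%, but only 58.6% of them have a window, too few for a check. The stretches below belong to the members with large rises that hold it before the start and run 5′ to 3′ along the gene, with the element in capitals.
Nupr1, chr7:126625543-126625610, minus strand: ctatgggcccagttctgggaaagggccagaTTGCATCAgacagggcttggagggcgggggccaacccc
Chac1, chr2:119351019-119351086, plus strand: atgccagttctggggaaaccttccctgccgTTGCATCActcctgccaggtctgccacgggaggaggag
Pycr1, chr11:120643814-120643881, minus strand: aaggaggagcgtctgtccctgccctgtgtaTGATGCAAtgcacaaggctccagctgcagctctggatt
Asns, chr6:7693210-7693262, minus strand: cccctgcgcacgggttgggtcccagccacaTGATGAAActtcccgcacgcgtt
In Nupr1 and Chac1 the element lies in reverse, 110 and 193 bases before the start, and in Pycr1 and Asns forward, 103 and 23 bases before it. Chac1, which degrades glutathione, rose 2.55-fold, Pycr1, of proline synthesis, 2.41-fold, and Asns, asparagine synthetase, 2.25-fold. Asns read 6.18, 6.28 and 6.58 in controls and 7.54, 7.47 and 7.55 with IL-4. A match in these letters describes the window and does not show binding. The share of 25.0% covers all list members with a window, whatever their change with IL-4, so it describes the list and not the response. Only 62.3% of the 2-fold rises and 45.7% of the 2-fold falls have a window in the table, so shares over them are void and are not given.

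The genes of T-bet and the chemokine receptor CXCR3 rose with IL-4 in the knockout cells. T-bet, encoded by Tbx21, directs B cells toward switching to IgG2a and induces CXCR3. Cxcr3 (mm9 chrX:98926920-98926979) read -3.57, -3.55 and -2.59 in controls, where it was well above background on 1 array, and -0.46, -0.54 and -0.44 with IL-4. It was 6.75-fold higher (2.76 ± 0.33, adjusted p = 0.000115, and 2.11 within slide 2), with the IL-4 arrays in a narrow band above all controls. Tbx21 (mm9 chr11:96959417-96959476) read -4.25, -2.75 and -2.95 in controls, with 2 arrays above background, and -1.04, -0.78 and -0.69 with IL-4. It was 5.56-fold higher in the knockout and not well above background on any wild-type array, so no change is given there. For Cxcr3 the response was higher than in wild type (difference 2.08, adjusted p = 0.00461).

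Genes that act beside T-bet did not move as 1 group. Of 21 on the list tested, 8 rose and 5 fell, with a median of -0.14 that turns to 0.01 under median scaling. Il12rb1, a chain of the IL-12 receptor, read 1.87, 1.94 and 2.12 in controls and 2.90, 2.96 and 3.14 with IL-4 and rose 2.03-fold. Stat4, the STAT factor of that receptor, rose 1.56-fold and Runx3, a partner of T-bet, 1.51-fold. Il18r1, a chain of the IL-18 receptor, went the other way, from -1.65, -1.88 and -1.41 to signals not well above background on any IL-4 array, and was at least 4.30-fold lower. That bound sets the mean of the controls against the lowest signal well above background, or the gene's own where higher, on each IL-4 array. The others that passed as lower were Bhlhe40 (-0.58), Ccl3 (-0.39), Nkg7 (-0.30) and Abi3 (-0.24), and none of these 4 passed under median scaling. Abi3 also did not pass within slide 2 (adjusted p = 0.0702). Bhlhe40, whose groups overlapped, was lost without control 2, control 3, IL-4 array 1 or IL-4 array 2.

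Cell cycle genes rose almost throughout, though none of those in the mitosis and DNA replication lists reached 2-fold. Of 42 mitosis genes tested, 39 rose and 0 fell (median 0.64, and 0.67 within slide 2). Melk, a kinase of proliferating cells, read 2.42, 2.29 and 2.16 in controls and 3.38, 3.29 and 3.12 with IL-4 (1.96-fold). Bub1b, a spindle checkpoint kinase, read 2.50, 2.50 and 2.39 in controls and 3.43, 3.41 and 3.26 with IL-4 (1.87-fold), and the groups were clearly apart. Anln, of the contractile ring, rose 1.93-fold, Nusap1, a spindle protein, 1.79-fold and Foxm1, a transcription factor of mitotic genes, 1.78-fold.

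Of 46 DNA replication genes, 37 rose and 0 fell (median 0.41). Pold1, the catalytic subunit of DNA polymerase delta, read 5.67, 5.66 and 5.71 in controls and 6.65, 6.58 and 6.60 with IL-4 (1.90-fold). Cdc45 and Mcm10, parts of the replication fork, rose 1.68-fold and 1.63-fold. The response was higher than in wild type for 13 of 42 mitosis genes and lower for 0. It was higher for 29 replication genes and lower for 1, beside 28.3% and 16.4% of all genes. The 13 mitosis genes stand near the share of all genes that responded more. In wild type 32 mitosis genes rose (median 0.33), whereas 10 replication genes rose and 6 fell (median 0.05). Mcm10 moved by 0.01 in wild type, and the difference of 0.70 passed (adjusted p = 0.000508). Bub1b moved by 0.09 there (difference 0.81, adjusted p = 3.58e-05).

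Ribosome biogenesis genes, which follow growth, rose in 16 of 31 cases and fell in 0 (median 0.33), and 23 rose within slide 2 (median 0.47). Without control 2, control 3, IL-4 array 1 or IL-4 array 2 the rises came to 9, 8, 8 and 9, without control 1 or IL-4 array 3 to 26 and 25, and under quantile normalisation to 10. The list median, relative to the mean of the controls, was 0.21, -0.02 and -0.17 in the controls and 0.46, 0.43 and 0.11 with IL-4, so IL-4 array 3 lay below control 1. In wild type 1 rose and 15 fell. Polr1c, a subunit shared by RNA polymerases I and III, read 5.49, 5.52 and 5.53 in controls and 5.99, 5.99 and 6.01 with IL-4, a narrow but complete separation (0.48 ± 0.04, adjusted p = 1.77e-05), and fell by 0.38 in wild type (difference 0.86, adjusted p = 1.73e-06). Myc, a driver of both programmes, rose by 0.27 ± 0.05 in the knockout, which did not pass under quantile normalisation, and fell by 0.58 in wild type (difference 0.84, adjusted p = 8.42e-06). Ccnd2, which encodes cyclin D2, rose 1.61-fold. Among 22 cyclins, CDK inhibitors and Myc-network genes, 9 rose and 4 fell. Of the CDK inhibitors, Cdkn2b stood at -0.49, and Cdkn1c, above background on 2 control arrays and on no IL-4 array, was at least 1.58-fold lower. Mxd4, an antagonist of Myc, stood at -0.68. Ccng2, which encodes cyclin G2, stood at -1.26 with overlap, did not pass within slide 2 (adjusted p = 0.0602) and was lost without control 2, control 3, IL-4 array 1 or IL-4 array 2.

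**Figure D3:**
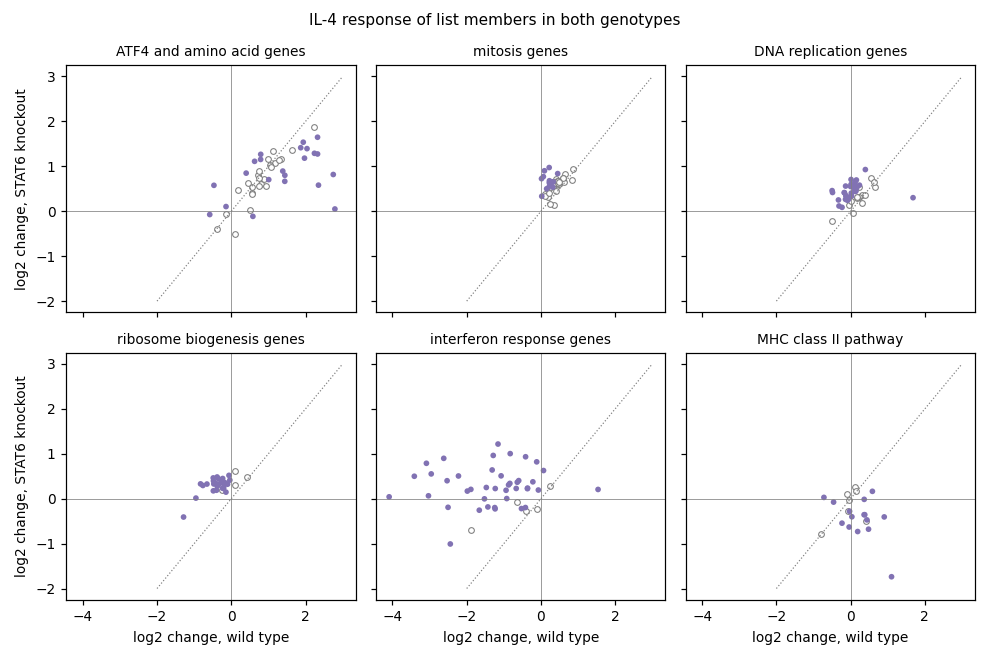
Log2 change with IL-4 in knockout cells (vertical) against wild-type cells (horizontal) for members of 6 lists, filled where the responses differed (adjusted p under 0.05), with a dotted line at equal responses. Of the interferon response genes, 40 lie above that line with a difference that passed, and 13 MHC class II genes lie below it.

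In the promoters of mitosis genes the cell cycle homology region, searched as TTTGAA on both strands, was found in 71.8% of 39 windows (36 members, 85.7% of the list), against 17.9% of all windows and 12.3% of those of genes tested. The CCAAT box, searched as CCAAT, was found in 74.4% against 37.4% and 38.0%. An E2F element, searched as TTTCGCG, lay in 19.1% of 47 windows of DNA replication genes (82.6% of the list) against 0.8% and 1.8%. Only 58.6% of the genes tested have a window. These shares cover all list members with a window, whatever their change with IL-4, so they describe the lists and not the response. The stretches show the cell cycle homology region in members with large rises, cut at the start of the gene.
Ube2c, chr2:164769870-164769928, plus strand: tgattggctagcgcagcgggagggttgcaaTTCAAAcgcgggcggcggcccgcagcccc
Kif11, chr19:37376333-37376381, plus strand: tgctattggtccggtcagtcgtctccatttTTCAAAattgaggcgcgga
Prc1, chr7:80294416-80294475, plus strand: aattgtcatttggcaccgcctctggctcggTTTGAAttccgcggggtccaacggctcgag
Ube2c, the ubiquitin-conjugating enzyme of the anaphase-promoting complex, read 4.32, 4.21 and 4.03 in controls and 5.06, 4.92 and 4.79 with IL-4 (1.67-fold). Kif11, a spindle motor, rose 1.66-fold and Prc1, which bundles microtubules at cell division, 1.63-fold.

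Genes of antibody secretion fell. Igj, the joining chain of secreted IgM and IgA (mm9 chr5:88949919-88949978), read 6.65, 6.35 and 6.02 in controls and 3.03, 2.92 and 2.77 with IL-4. All IL-4 arrays lay far below the lowest control, and the fall was 10.8-fold (-3.44 ± 0.13, adjusted p = 3.57e-07, and -3.12 within slide 2). Prdm1, which encodes Blimp-1, the regulator of plasma cell fate, read 1.77, 1.68 and 1.54 in controls and -0.13, -0.02 and 0.08 with IL-4 (3.22-fold lower). Bhlha15, the secretory cell factor MIST1, read 1.57, 1.27 and 1.35 in controls and -0.42, -0.50 and -0.43 with IL-4 (3.60-fold lower). It also fell in wild type, by 2.28 on the log2 scale. In bulk samples, fewer plasma cells and less of this RNA in each cell cannot be told apart.

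Of 29 plasma cell genes tested, 16 fell and 4 rose (median -0.37, and 14 and 3 within slide 2 with a median of -0.24). In wild type 13 of the 29 fell and 10 rose (median -0.15), beside 30.8% and 26.4% of all genes. Derl3, of protein disposal in the endoplasmic reticulum, was 3.17-fold lower and Selm, a selenoprotein of that compartment, 3.42-fold lower. Derl3 fell further in wild type, by 3.07 on the log2 scale (difference 1.41, adjusted p = 5.89e-05). Xbp1, the regulator of secretory capacity, read 6.66, 6.49 and 6.42 in controls and 5.66, 5.60 and 5.59 with IL-4, so it was 1.87-fold lower here and rose by 0.87 in wild type (difference -1.77, adjusted p = 1.19e-07). Those that rose were Slamf7 (0.39), Eaf2 (0.27, which turns to -0.03 with the mean of its probes), Tnfrsf13b (0.20) and Irf4, a factor of activated B cells and plasma cells, at 0.23 (0.19 within slide 2, adjusted p = 0.118). Sdc1, the plasma cell surface protein CD138, moved by 0.10 ± 0.16 (adjusted p = 0.646). Among 35 genes of protein folding and the endoplasmic reticulum, 13 fell and 5 rose, with a median of -0.14 that turns to 0.02 under median scaling, where 6 fell and 6 rose. Under quantile normalisation 21 fell and 4 rose, and within slide 2, 8 fell and 6 rose.

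Immunoglobulin constant regions fell in 5 of 7 cases and rose in 0 (median -0.52), and under median scaling 3 fell and 1 rose. Ighe, which reports germline and switched IgE transcripts (mm9 chr12:114509504-114509563), read 0.02, 0.23 and 0.33 in controls and -1.33, -1.10 and -0.97 with IL-4. It was lower on every IL-4 array, 2.51-fold in all, whereas in wild type it rose by 2.63 on the log2 scale. Ighm, the IgM heavy chain, read 8.57, 8.52 and 8.51 in controls and 7.70, 7.67 and 7.59 with IL-4 (1.84-fold lower, against 1.08 on the log2 scale in wild type). Ighg3 fell by 0.90 here and fell by 2.88 in wild type. Ighg2b fell by 0.29 (-0.25 within slide 2, adjusted p = 0.0819) in the knockout and fell by 5.75 in wild type.

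Ighg1 read 3.90, 4.03 and 4.10 in controls and 4.11, 4.03 and 4.26 with IL-4. The groups overlapped and the change of 0.13 ± 0.07 did not pass (adjusted p = 0.185). In wild type it rose by 2.72. Of 16 class switching enzymes, 6 rose and 2 fell, beside 27.5% and 14.7% of all genes. The median of 0.13 becomes -0.01 under quantile normalisation, where 3 rose. Within slide 2, 7 rose and 0 fell. Apex2 (-0.24) was lost within slide 2 (adjusted p = 0.406), under median scaling and without control 2, IL-4 array 1, IL-4 array 2 or IL-4 array 3.

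Transcripts of the MHC class II pathway fell and those of several costimulatory ligands rose. Of 22 genes of the class II pathway, 13 fell and 0 rose (median -0.36, and -0.38 within slide 2), and 7 fell and 2 rose under median scaling. H2-Eb2 read 1.22, 1.09 and 1.11 in controls and 0.36, 0.40 and 0.32 with IL-4 (1.72-fold lower), H2-Aa fell 1.66-fold and H2-DMb1, of peptide loading, 1.60-fold. H2-Ab1, a classical beta chain, read 9.07, 9.07 and 9.10 in controls and 8.73, 8.66 and 8.64 with IL-4, a fall of 0.40 ± 0.04 with no overlap, which did not pass under median scaling. March1, a ubiquitin ligase that removes class II molecules and CD86 from the surface, was lower too, at 1.35, 1.01 and 0.59 in controls and -0.57, -0.51 and -1.18 with IL-4 (3.34-fold). Ciita, the coactivator of the class II genes, was near background, and its change of -0.50 ± 0.48 did not pass (adjusted p = 0.437). In wild type 8 of the 22 rose and 4 fell, beside 26.4% and 30.8% of all genes, and for 13 the response was lower in the knockout, beside 16.4% of all genes.

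Of 25 costimulatory and inhibitory molecules, 13 rose and 5 fell (median 0.20), and within slide 2, 11 rose and 2 fell. Cd80, which encodes the ligand B7-1, read 3.92, 3.75 and 3.77 in controls and 4.71, 4.77 and 4.95 with IL-4, a rise of 1.00 ± 0.07 (adjusted p = 3.49e-06), and fell by 1.76 in wild type (difference 2.76, adjusted p = 1.08e-08). Lag3, an inhibitory receptor that binds class II, read 0.50, 0.86 and 1.27 in controls and 2.03, 2.00 and 2.31 with IL-4 (2.36-fold) and moved by -0.28 in wild type. Cd86 rose 1.59-fold, Cd70 1.80-fold and Tnfsf9, the ligand of 4-1BB, 1.85-fold. Icosl, the ligand of ICOS, fell 1.62-fold, and Tnfsf4, which encodes OX40 ligand, Cd40 and Pdcd1, which encodes PD-1, stood at -0.63, -0.34 and -0.25. These 3 did not pass within slide 2 (adjusted p = 0.214, 0.264 and 0.0801) or under median scaling.

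Genes of B cell identity moved little on the whole, with 7 of 35 up and 15 down (median -0.14). Under median scaling 10 rose and 5 fell (median 0.01), and within slide 2, 6 rose and 6 fell. Without control 3 or IL-4 array 1 the rises came to 4. Fcrla, an intracellular Fc receptor-like protein of germinal centre B cells, stood out at 2.77, 2.86 and 2.87 in controls and 1.31, 1.16 and 1.19 with IL-4 (3.05-fold lower). Bcl6, the germinal centre repressor, fell by 0.42 and rose by 1.14 in wild type (difference -1.56, adjusted p = 3.09e-07). Pax5, the lineage factor, rose by 0.22, a call lost without control 3 or IL-4 array 3, and fell by 0.78 in wild type.

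Among 25 chemokines and their receptors, 10 fell and 4 rose (median -0.15, which becomes 0.01 under median scaling). Ccr6, which responds to CCL20, read 7.0, 6.97 and 6.82 in controls and 5.50, 5.47 and 5.46 with IL-4. It was 2.73-fold lower, and in wild type it fell by 7.92 on the log2 scale. Ccr10, a receptor of antibody-secreting cells that home to mucosa, read 0.59, 0.64 and 0.77 in controls and -0.73, -0.57 and -0.50 with IL-4 (2.41-fold lower). Cxcr5, which guides B cells into follicles, rose by 0.36 and fell by 0.89 in wild type. Ccl22 rose by 0.78 and fell by 1.52 in wild type. The difference passed for Ccr6 (6.47), Cxcr5 (1.25) and Ccl22 (2.31).

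Cytokine genes moved in both directions. Of 18 tested, 9 rose and 4 fell. Il6 read 1.98, 2.00 and 2.03 in controls and 3.37, 3.36 and 3.27 with IL-4 (2.52-fold), with the arrays of each group close together, and rose by 1.55 in wild type. Tnf rose 1.63-fold in the knockout and moved by -0.12 in wild type (difference 0.83, adjusted p = 0.000214). Csf2, which encodes GM-CSF, read 1.01, 0.77 and 0.62 in controls and 1.47, 1.53 and 1.41 with IL-4. It rose by 0.67 ± 0.10, whereas in wild type it was well above background on all 3 controls and on no IL-4 array. Il2 was not well above background on any control array and well above it on all 3 IL-4 arrays, at least 2.26-fold higher, but within slide 2 it did not pass (adjusted p = 0.20). Ltb, lymphotoxin beta, fell 1.77-fold, and Il18, Il1b and Il16 stood at -0.79, -0.40 and -0.23. These 3 did not pass within slide 2 (adjusted p = 0.0541, 0.292 and 0.229), where 7 cytokine genes rose and 1 fell. Without control 1 or IL-4 array 2 the falls came to 2. Of 28 cytokine receptors, 7 rose and 10 fell (median -0.08), beside 27.5% and 14.7% of all genes. Under median scaling 9 rose and 5 fell (median 0.07), and within slide 2, 7 rose and 6 fell.

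Of 23 AP-1, BATF and NF-kB factors, 16 rose and 2 fell (median 0.31, and 10 and 2 within slide 2). Nfkb2, a subunit of the alternative NF-kB route downstream of CD40, read 6.31, 6.34 and 6.36 in controls and 6.93, 6.89 and 6.91 with IL-4 (1.49-fold). Relb, its partner, rose 1.44-fold. Nfkbid, an atypical inhibitor, rose 2.72-fold, though control 3 was already at 5.37 against 4.29 and 4.88 in the other controls, and within slide 2 the rise was 0.92 (adjusted p = 0.0433). The 2 that fell were Fos, at -2.06, -1.69 and -1.26 in controls and not well above background on any IL-4 array (at least 3.93-fold lower), and Fosl2, 2.15-fold lower here and higher by 3.07 on the log2 scale with IL-4 in wild type. Fosl2 read -1.91, -1.16 and -1.06 in controls and -3.03, -2.59 and -1.81 with IL-4, with overlap. Its call was lost with only the 6 knockout arrays, and its other probe (-0.61) did not pass. Irg1, which makes itaconate, read -2.39, -2.76 and -3.21 in controls and -0.83, -0.72 and -0.64 with IL-4 (4.17-fold) and moved by -0.44 in wild type (difference 2.50, adjusted p = 5.62e-05).

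Interferon response genes responded differently in the genotypes. In the knockout 24 of 46 rose and 8 fell (median 0.23), with 3 falls without control 2, 4 without IL-4 array 1, 4 within slide 2 and 1 under median scaling, and in wild type 1 rose and 39 fell (median -1.11). The response was higher in the knockout for 40 and lower for 1, beside 28.3% and 16.4% of all genes. Isg15, a ubiquitin-like modifier, read 5.84, 5.86 and 6.02 in controls and 6.87, 6.92 and 6.94 with IL-4 (2.00-fold) and fell by 0.83 in wild type. Ifit1, which binds viral RNA, read 0.72, 0.84 and 0.82 in controls and 1.64, 1.65 and 1.77 with IL-4 (1.86-fold) and fell by 2.62 in wild type. Oasl1 and Herc6 rose 1.95-fold and 1.91-fold. Irf7, a transcription factor of the response, was lower, at 0.57, 0.83 and 0.89 in controls and -0.46, -0.15 and -0.13 with IL-4 (2.01-fold lower).

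The interferon-stimulated response element, searched as TTTC, any 2 bases and TTTC on both strands, is shown for 2 of the genes that rose. In each stretch only the match nearest the start is in capitals, and further matches lie in the flanking bases. Windows were held for only 67.4% of this list, so its share is void. In all 32851 windows the element was found in 3.4%, and in those of genes tested in 3.0%.
Isg15, chr4:156200845-156200914, minus strand: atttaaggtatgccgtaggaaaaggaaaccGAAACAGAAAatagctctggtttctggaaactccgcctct
Ifit1, chr19:34640774-34640843, plus strand: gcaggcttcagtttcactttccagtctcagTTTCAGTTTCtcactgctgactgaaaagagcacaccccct

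Genes of glycolysis and of the hypoxia response fell, and they differed most between arrays of a group. HIF-1, the factor that activates them when oxygen is low, binds near the start of glycolytic genes. Of 28 glycolysis genes, 16 fell and 0 rose (median -0.66, and -0.89 within slide 2), and of 31 hypoxia response genes 13 fell and 3 rose (median -0.62, and -1.0 within slide 2). Relative to the mean of the controls, the median of the glycolysis list was -0.30, 0.10 and 0.26 in the controls and -1.06, -0.89 and -0.11 in the IL-4 arrays. For the hypoxia list it was -0.53, 0.14 and 0.38 in the controls and -1.10, -0.86 and 0.05 in the IL-4 arrays. IL-4 array 3 thus lay inside the range of the controls on both lists, and control 1 lay lowest of the controls. Without IL-4 array 3, 26 glycolysis and 23 hypoxia genes fell (medians -0.94 and -0.98), and without control 1, 22 and 19. Without control 2, control 3, IL-4 array 1 or IL-4 array 2, 8 glycolysis genes fell in each case (medians -0.47 to -0.65), and 4, 3, 3 and 3 hypoxia genes (medians -0.45 to -0.56). In wild type 2 glycolysis genes rose and 4 fell (median -0.10), and 7 hypoxia genes rose and 5 fell (median -0.15). The response was higher in the knockout for 1 glycolysis gene and lower for 6. For hypoxia genes it was higher for 2 and lower for 6, beside 28.3% and 16.4% of all genes.

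Mgarp, a mitochondrial protein induced by low oxygen (mm9 chr3:51192355-51192414), read 1.44, 2.55 and 3.12 in controls and -3.45, -2.35 and 1.38 with IL-4. IL-4 arrays 1 and 2 were far below the controls, and array 3 was close to control 1 (-3.84 ± 0.99, adjusted p = 0.0107, and 0.0358 within slide 2). Slc16a3, the lactate exporter MCT4, read 4.77, 5.64 and 5.86 in controls and 0.20, 2.28 and 5.25 with IL-4. The groups overlapped, and the fall of 2.85 (adjusted p = 0.036) did not pass within slide 2 (adjusted p = 0.102). Ak4, an adenylate kinase of mitochondria, and P4ha2, a collagen prolyl hydroxylase, likewise did not pass within slide 2 (adjusted p = 0.0845 and 0.0696). These 3 calls were also lost without control 2, control 3, IL-4 array 1 or IL-4 array 2. Pygl, the liver type of glycogen phosphorylase, separated the groups, at -0.18, 0.82 and 1.35 in controls and -2.26, -2.28 and -0.75 with IL-4 (5.36-fold lower, and -3.11 on the log2 scale within slide 2). Pgk1, a glycolytic kinase, read 8.17, 8.66 and 8.85 in controls and 7.39, 7.51 and 8.24 with IL-4, so that IL-4 array 3 and control 1 were at a similar level. Hif1a itself rose by 0.28 ± 0.05 (adjusted p = 0.00193), as did Car9, a carbonic anhydrase (0.31). Stc2, stanniocalcin 2, stood at 0.58, a call lost within slide 2 (adjusted p = 0.388) and without control 1 or IL-4 array 3.

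**Figure D4:**
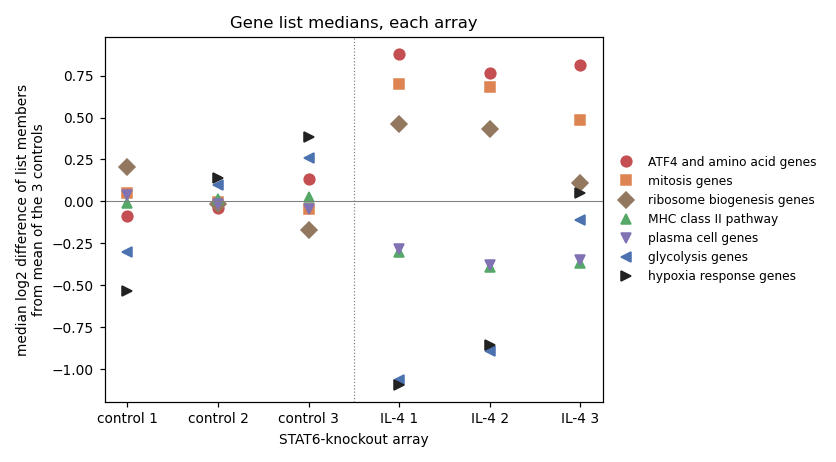
Median log2 difference of the members of 7 lists from the mean of the 3 knockout controls, for each knockout array. ATF4 and mitosis genes lie above, and MHC class II and plasma cell genes below, all controls in the 3 IL-4 arrays, whereas glycolysis and hypoxia genes in IL-4 array 3 (-0.11 and 0.05) lie among the controls.

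The core of the hypoxia element, searched as ACGTG on both strands, was found in 48.7% of 39 windows of glycolysis genes (96.4% of the list), against 19.6% of all windows and 25.7% of those of genes tested. The glycolysis share covers all list members with a window, whatever their change with IL-4, so it describes the list and not the response. For the hypoxia list 77.4% of members have a window, so no share is given. The stretches show the element in 2 members of the hypoxia list with large falls.
Mgarp, chr3:51396732-51396796, minus strand: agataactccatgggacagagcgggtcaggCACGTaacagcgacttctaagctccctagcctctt
Ak4, chr4:101419460-101419524, plus strand: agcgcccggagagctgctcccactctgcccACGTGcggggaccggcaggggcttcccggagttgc

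Other metabolic lists moved less. Of 47 genes of the mitochondrial respiratory chain 18 rose and 1 fell (median 0.14), beside 27.5% and 14.7% of all genes. Under quantile normalisation 10 rose and 6 fell. Of 39 genes of sterol and fatty acid synthesis 13 fell and 4 rose (median -0.10). Their counts turned under median scaling to 3 lower and 7 higher (median 0.05), and were 22 and 1 under quantile normalisation, 7 and 2 within slide 2 and 7 and 2 without control 2. Cox6a2, a subunit of cytochrome oxidase known from muscle and kept in the immunometabolic list, read 4.17, 4.15 and 4.38 in controls and 6.57, 6.33 and 6.15 with IL-4 (4.34-fold), and rose by 2.86 in wild type. Among 15 genes of the BCL2 family, 7 rose and 2 fell, Bcl2l14 (-1.21) and Bmf (-0.69), and within slide 2, 4 rose and 3 fell.

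The comparison with wild-type cells shares no array with the knockout comparison. Of the 130 genes that rose at least 2-fold in the knockout, 63 (48.5%) also rose 2-fold in wild type, against 5.71% of all genes, and 12 (9.23%) fell there, against 6.95%. Of the 451 that fell, 265 (58.8%) also fell in wild type and 32 (7.10%) rose. Seen from the wild type, 6.69% of its 942 2-fold rises also rose 2-fold in the knockout, against 0.788% of all genes. Of its 1146 2-fold falls, 23.1% also fell 2-fold there, against 2.73% of all genes. The interaction, which tests the difference between the responses, passed for 293 of the 581 genes, against 44.8% of all genes, so by this measure the 581 stand near the background. All wild-type arrays lay on slide 1.

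**Figure D5:**
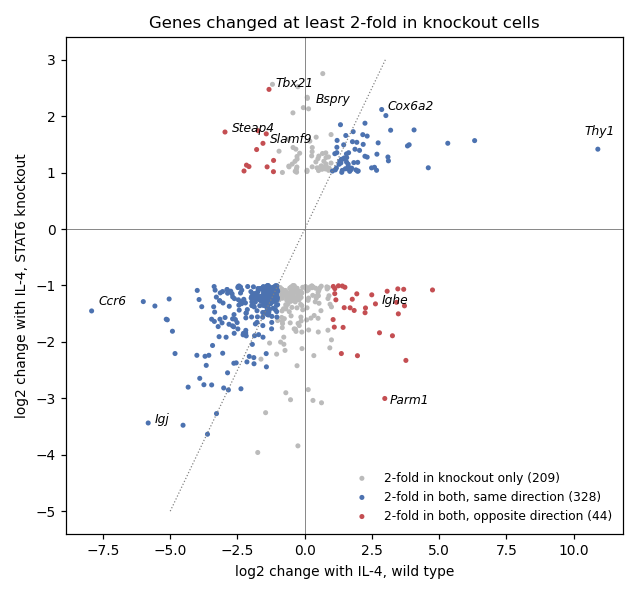
Log2 change with IL-4 in knockout cells (vertical) against wild-type cells (horizontal) for the 581 genes that changed at least 2-fold in the knockout, with a dotted line at equal responses. 328 genes changed 2-fold in the same direction in both genotypes, 44 in opposite directions, and 209 did not reach the threshold in wild type.

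Among the 44 with opposite directions, Slamf9, a receptor of the SLAM family, read 2.38, 2.29 and 2.62 in controls and 3.94, 3.91 and 4.00 with IL-4. It rose 2.87-fold in the knockout and fell by 1.55 on the log2 scale in wild type (difference 3.07, adjusted p = 1.55e-08). Steap4, a metalloreductase, was well above background on 1 control array and on all IL-4 arrays and rose by 1.72 ± 0.14, whereas in wild type it was well above background on all controls and on no IL-4 array. Phf11b read 4.51, 4.34 and 4.26 in controls and 5.57, 5.50 and 5.43 with IL-4 and rose by 1.13 against a fall of 2.16. Parm1, a mucin-like membrane protein (mm9 chr5:92052938-92052997), was the clearest case the other way. It read -0.74, -1.27 and -1.77 in controls and was not well above background on any IL-4 array (at least 5.63-fold lower), and rose by 2.98 in wild type. Cd28, a costimulatory receptor also carried by plasma cells, read -2.09, -2.38 and -2.48 in controls and -3.90, -3.80 and -3.58 with IL-4 (2.72-fold lower, above background on 2 of the IL-4 arrays) and rose by 1.84 in wild type.

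Some genes changed in the knockout with little change in wild type, and their interaction passed. Bspry, a regulator of calcium entry, read -0.87, -1.11 and -1.15 in controls and 1.26, 1.04 and 0.96 with IL-4 (4.38-fold) and moved by 0.14 in wild type (difference 1.99, adjusted p = 2.91e-06). Ache, acetylcholinesterase, read -1.50, -1.42 and -1.20 in controls and -3.03, -2.83 and -2.55 with IL-4 (2.70-fold lower) and moved by -0.07 (difference -1.36, adjusted p = 8.43e-05). Dnase1l3, a secreted nuclease, fell 2.06-fold and moved by 0.05 in wild type.

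Defining genes of B cells were bright on all 6 arrays. Cd79a, a chain of the B cell receptor, read 6.54 to 6.85 and Ms4a1, which encodes CD20, 8.41 to 8.65. The change of Cd79a with IL-4 did not pass the test (-0.15). Markers of other cells were read to see what else the purified cells held. Of 18 T cell markers 13 were well above background on all 6 arrays. Of 14 tested, 2 rose, Thy1 by 1.42 and Cd2 by 0.37, and 7 fell, and Cd8a, Cd8b1 and Trat1 were not well above background on any knockout array. Cd3e read -0.74, -0.99 and -0.44 in controls and -0.78, -0.53 and -0.94 with IL-4, with overlap. The summed signal of the list, in units of the 75th percentile of the array, was 45.7 to 51.3 in controls and 39.8 to 41.9 with IL-4. Cd5, which B cells also carry, was 3.59-fold lower. Of 11 NK and cytotoxic markers 9 were not well above background on any knockout array, Ncr1 and Klrd1 among them, and the sums were 5.16 to 5.62 and 4.34 to 4.67. Of 15 macrophage markers 7 were well above background on all 6 arrays, Csf1r and Cd68 among them, and 7 on none, Lyz2, Mrc1 and C1qa to C1qc among these. That list summed to 63.0 to 67.1 and 64.2 to 67.0, and 1 member rose and 1 fell, Cd68 by -0.92. Of 10 dendritic cell markers 6 were well above background on all 6 arrays and 3, Itgax, Xcr1 and Clec9a, on none. Zbtb46, Batf3 and Bst2 rose (by 0.98, 0.47 and 0.63, Batf3 not passing within slide 2), 0 fell, and the sums were 330.8 to 358 and 326.6 to 383.7. Of 13 mast cell, basophil and eosinophil markers 3 were well above background on all 6 arrays and 7 on none, Fcer1a, Mcpt8 and Epx among these, and the sums were 3.25 to 3.79 and 1.79 to 2.27. In that list Prg2, an eosinophil granule protein, read 0.56, 0.15 and -0.38 in controls and -2.72, -2.34 and -2.89 with IL-4 (6.79-fold lower). Of 11 neutrophil markers 2 were above background on all 6 arrays and 7 on none (sums 86.1 to 89.2 and 70.1 to 88.6), and of 9 erythroid and platelet markers 3 and 4, with sums of 2.45 to 2.77 and 2.01 to 2.11. What part these markers have in the changes above was not tested.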

How the data were processed

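RNA of the 6 knockout arrays was measured on 1-colour Agilent arrays. The deposited intensity values are processed signals of Agilent Feature Extraction 10.7.3.1, with spatial and multiplicative detrending switched on and global background adjustment off, per the file headers, which also give probe positions on mm9. Gene names differed between the slides for 1849 of 59305 spots, and those of slide 1 were used. The authors' deposited table of log2 gene-level values served as an alternative; its processing is not given in the sources used here.

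Signals were set to log2 minus the 75th percentile of each array. A probe was kept where some group had it well above background on each of its 3 arrays (22939 of 55681 probes), and the brightest probe stood for each gene, so that 16496 genes were tested. One limma 3.58.1 model (R 4.3.3) held all 12 arrays and gave each response and the interaction, with Benjamini-Hochberg adjustment; 2-fold calls also needed a log2 change of 1. The scripts were tested on simulated data. Alternatives changed scaling, background, filter, probes, variance, slide, replicate block and arrays.

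The members and lists were chosen with earlier results of these data known. Genes were named by fixed lists, size of change, agreement within slide 2, bounds, smallest adjusted p in each list, direction in both genotypes and spread. Asns, Atf4, Batf3, Bst2, Cd3e, Cd68, Cd70, Cd79a, Cd86, Cdc45, Cebpb, Chac1, Ciita, Csf1r, Ddit3, Foxm1, H2-Aa, Kif11, March1, Mcm10, Nfkbid, Pgk1, Prc1, Pycr1, Sdc1, Shmt2, Slc6a9, Stat5a, Tnfsf9, Trib3, Ube2c and Zbtb46 are not named by it; they were picked after their values were seen. Some genes are not reported here.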

Additional observations from a re-analysis of the deposited data

Results flagged for a closer look

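Among the genes named, 9 had fitted changes of at least 2-fold in opposite directions in the genotypes, with a difference between the responses that passed limma's interaction test. Their differences are given as log2 response in the knockout minus that in wild type, with the value with slide as a block after it. For Parm1 the difference was -5.98 (-5.47), for Fosl2 -4.17 (-4.49), for Ighe -3.96 (-4.10), for Cd28 -3.28 (-3.12) and for March1 -2.84 (-2.45), each lower in the knockout. For Steap4 it was 4.68 (4.58), for Tbx21 3.80 (3.43), for Phf11b 3.30 (3.41) and for Slamf9 3.07 (2.88), each higher in the knockout. The largest adjusted p among them was 0.000114, for Tbx21, and 0.00143 with slide as a block. For 3 of these genes the fitted difference rests on signals that were not well above background and is no bound: Parm1 on the knockout IL-4 arrays, Steap4 on the wild-type IL-4 arrays and Tbx21 on all wild-type arrays. For Fosl2 the knockout groups overlapped, and its fall there was lost with only the 6 knockout arrays. Arrays of each group numbered 3, so no array was tested for standing apart from its group.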

How the results depend on the processing

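The 581 genes (130 up, 451 down) became 227 (54 and 173) with normexp background correction, 261 (45 and 216) in the authors' deposited table and 360 (82 and 278) with probes above background on all 12 arrays. They became 6969 (4539 and 2430) with the adjusted p alone and 1814 (733 and 1081) with a log2 minimum of 0.58. Median scaling raised the rises to 234. Leaving out 1 array gave 543 to 647 genes, 118 to 166 up and 412 to 522 down. The 293 genes that differed from wild type became 116 with normexp, 136 in the authors' table, 178 with probes above background on all 12 arrays and 465 with array weights, and 247 to 373 when 1 array was left out. Of 154 named genes, 151 had no turned call in the 19 settings, and 114 also kept their side of the threshold. A turn was counted only where the change passed in the main fit or in the alternative. The sign of changes that passed in neither was not compared, and some genes were not measured in every setting. Ighg1 turned to -0.19 in the authors' table, Ptpn6 to 0.0204 under median scaling and Eaf2 to -0.0271 with the mean of its probes. List medians that turned were, under quantile normalisation, class switching enzymes (-0.00651), cyclins, CDK inhibitors and Myc (-0.0160), IL-4 receptor chains and JAK kinases (-0.0741) and dendritic cell markers (-0.0206). Dendritic markers also turned with slide as a block (-0.0419) and without control 1 (-0.00643), and the receptor and JAK list without control 1 (-0.0107). Medians turned under median scaling for B cell identity (0.00768), cytokine receptors (0.0729), chemokines and receptors (0.00512), T-bet genes (0.00963), protein folding (0.0152) and sterol synthesis (0.0501). Median scaling changes only the constant taken from each array. The median of all genes moved with these lists, from 0.0477 to 0.200, so these turns are a shift of all genes. The causes of the other turns were not tested. Whether knockout arrays of the same number are paired cannot be told from these values. Deviations of same-numbered arrays correlated at 0.32, -0.02 and 0.39, and those of arrays with different numbers at -0.47 to 0.31. The replicate block gave 586 genes and 292 that differed from wild type. It fits the same effect of each number in both genotypes, so it cannot exclude pairing within the knockout. Signals below background limit 23 of the rises and 93 of the falls to bounds.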
